A study of Mus musculus with 4 samples.

Results

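Tuft cells are a rare chemosensory type of the intestinal epithelium, and 10 genes that mark them or carry out their functions were followed here in the inflamed mouse colon. The genes were chosen by symbol as *Dclk1*, *Trpm5*, *Pou2f3*, *Il25*, *Il17rb*, *Avil*, *Gfi1b*, *Alox5*, *Ltc4s* and *Sh2d6*. The deposited table listed 8 of these 10 among its 16015 genes. *Il25* and *Ltc4s* were not listed and were not analysed here. Of the 8 listed genes, 6 had the mean of at least 10 normalized counts that was required for a test, in each group as well as over all mice, and *Pou2f3* and *Gfi1b* were below it.

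Epithelial cells from the colon were sequenced for 2 control mice and for 2 labelled *Bmal1* cKO, 7 days after the start of treatment with dextran sulfate sodium (DSS), a polysaccharide that injures the colonic epithelium. All 4 mice were C57BL/6 animals of 2 to 4 months that carried floxed *Bmal1* alleles and drank 3% DSS for 5 days, followed by water for 2 days. The control mice were *Bmal1* fl/fl and are labelled WT. The others were Villin-CreERT2;*Bmal1* fl/fl, in which the Villin promoter drives a tamoxifen-dependent Cre recombinase in the intestinal epithelium, and tamoxifen was injected on 5 days to delete the circadian gene *Bmal1*. The sources used here do not give the sex of these mice, nor whether the controls received tamoxifen.

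Tuft cells sense luminal metabolites through a relay borrowed from taste cells, in which G-protein-coupled receptors, a phospholipase C and a calcium-gated cation channel act in turn. In response they secrete IL-25, which acts on type 2 lymphoid cells, and eicosanoids such as cysteinyl leukotrienes and prostaglandins. The POU factor POU2F3 is required for the lineage to form, and it works together with small coactivator proteins at octamer motifs.

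The 250 bases upstream of the start sites are shown for 4 of the genes that fell together in the comparison, so that they can be read against the octamer of POU factors and the E-box of CLOCK and BMAL1. They come from RefSeq (GRCm38.p6), which gave such windows for 8 of the 10 genes, and each is written 5′ to 3′ on the strand of its gene. Capitals mark ATGCAAA, the octamer without its last base, or the whole octamer ATGCAAAT.
*Dclk1* (first of 2 windows), chr3:55242114-55242363, plus strand: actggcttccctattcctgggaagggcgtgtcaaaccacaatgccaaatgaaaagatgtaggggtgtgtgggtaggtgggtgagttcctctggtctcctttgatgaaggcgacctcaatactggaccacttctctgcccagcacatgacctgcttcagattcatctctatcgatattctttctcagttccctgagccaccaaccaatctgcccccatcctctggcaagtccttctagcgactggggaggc
*Trpm5*, chr7:143094643-143094892, minus strand: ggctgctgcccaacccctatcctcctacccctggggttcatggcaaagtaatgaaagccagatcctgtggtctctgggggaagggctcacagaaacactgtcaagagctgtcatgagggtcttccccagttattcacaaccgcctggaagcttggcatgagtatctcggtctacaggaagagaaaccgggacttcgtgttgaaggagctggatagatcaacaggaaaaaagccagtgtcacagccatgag
*Avil*, chr10:127000459-127000708, plus strand: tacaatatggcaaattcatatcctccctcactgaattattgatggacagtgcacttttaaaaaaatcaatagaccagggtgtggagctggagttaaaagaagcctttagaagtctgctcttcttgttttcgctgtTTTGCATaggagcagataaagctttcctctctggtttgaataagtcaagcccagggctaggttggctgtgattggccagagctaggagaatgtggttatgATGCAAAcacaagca
*Alox5*, chr6:116461179-116461428, minus strand: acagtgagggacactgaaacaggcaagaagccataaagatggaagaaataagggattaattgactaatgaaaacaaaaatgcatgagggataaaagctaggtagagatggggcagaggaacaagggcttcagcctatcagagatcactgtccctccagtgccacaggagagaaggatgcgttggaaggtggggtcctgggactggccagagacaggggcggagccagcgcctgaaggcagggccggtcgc
*Hpgds*, a prostaglandin D synthase that tuft cells express, chr6:65144731-65144980, minus strand, shown for its octamer: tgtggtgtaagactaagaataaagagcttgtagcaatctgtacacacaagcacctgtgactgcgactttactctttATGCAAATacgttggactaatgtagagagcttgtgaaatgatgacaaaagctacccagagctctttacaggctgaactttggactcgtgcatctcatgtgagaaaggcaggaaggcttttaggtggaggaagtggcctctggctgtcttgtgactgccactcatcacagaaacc

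On either strand, ATGCAAAT occurred in 1.60% of 32851 RefSeq windows of this length, and in 0 of the 9 windows of the tuft cell genes. Of the 44 windows of the further tuft lists described with each function, 5 held it, those of *1810046K07Rik*, *Hpgds*, *Itpr3*, *Kctd12* and *Sucnr1*. The *Hpgds* window held it on the strand of the gene, starting 174 bases before the start site. The shorter ATGCAAA, which every octamer contains, occurred in 4.12% of all windows. *Avil* was the only gene among the 8 to have it, 115 bases upstream on the opposite strand and 15 bases upstream on its own. The E-box CACGTG occurred in 6.02% of all windows, in 0 of the 9 and in 3 of the 44, those of *Chat*, *Hebp1* and *Itpr3*. These matches describe letters in a window and say nothing of binding.

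Levels are given as normalized counts, in which reads per gene were scaled by one size factor per library. Each library held between 10312791 and 14156639 recovered reads over the listed genes. Over the 13983 tested genes, limma called 3871 genes lower and 4059 higher in the mice labelled *Bmal1* cKO (two-sided, Benjamini-Hochberg adjusted p under 0.05). With scaling by library totals the split was 4885 lower and 3091 higher, and the fits that left out 1 mouse gave 2205 to 2852 lower and 2654 to 3154 higher, the fewest without cKO mouse 2. Genes rich in GC tended to have lower log2 fold changes (Spearman's rho = -0.61 across 13975 genes, which are not independent replicates). Each library was therefore also corrected by loess for GC content and exon length, which left rho at 0.01. The targeted gene, listed as *Arntl*, stood at 358 and 342 normalized counts in controls against 341 and 289 in the mice labelled *Bmal1* cKO, and this difference did not pass the test (adjusted p = 0.389, limma). Counts over a whole gene cannot show whether floxed exons were deleted. The paper reported loss of BMAL1 protein in the intestinal epithelium of such mice, by immunoblot and immunohistochemistry. Directions are therefore those between libraries labelled *Bmal1* cKO, shortened to cKO-labelled, and libraries labelled control.

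The tuft cell genes were lower in the cKO-labelled mice. All 8 listed genes had both cKO-labelled values below both control values, an arrangement found for 41.6% of all listed genes, and 0 had the reverse, found for 37.5%. *Pou2f3* and *Gfi1b*, at 0 reads in both cKO-labelled mice, were listed only through the controls, so for them a fall was the only possible direction. *Dclk1*, *Trpm5*, *Avil*, *Alox5* and *Sh2d6* passed the test as lower, which is 5 of the 6 tested genes against 27.7% of all tested genes, and 0 passed as higher against 29.0%. The median log2 fold change of the 6 was -2.08, and that of all tested genes was -0.04. With GC content and length corrected, the same 5 genes were lower, against 16.6% of all tested genes, with a median of -1.84 beside -0.01. Without control mouse 2 only *Trpm5* and *Alox5* passed, that is 2 of the 6, and without any other mouse 4 of the 6 passed. In such bulk samples, fewer tuft cells and less RNA per tuft cell cannot be told apart.

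**Figure D1:**
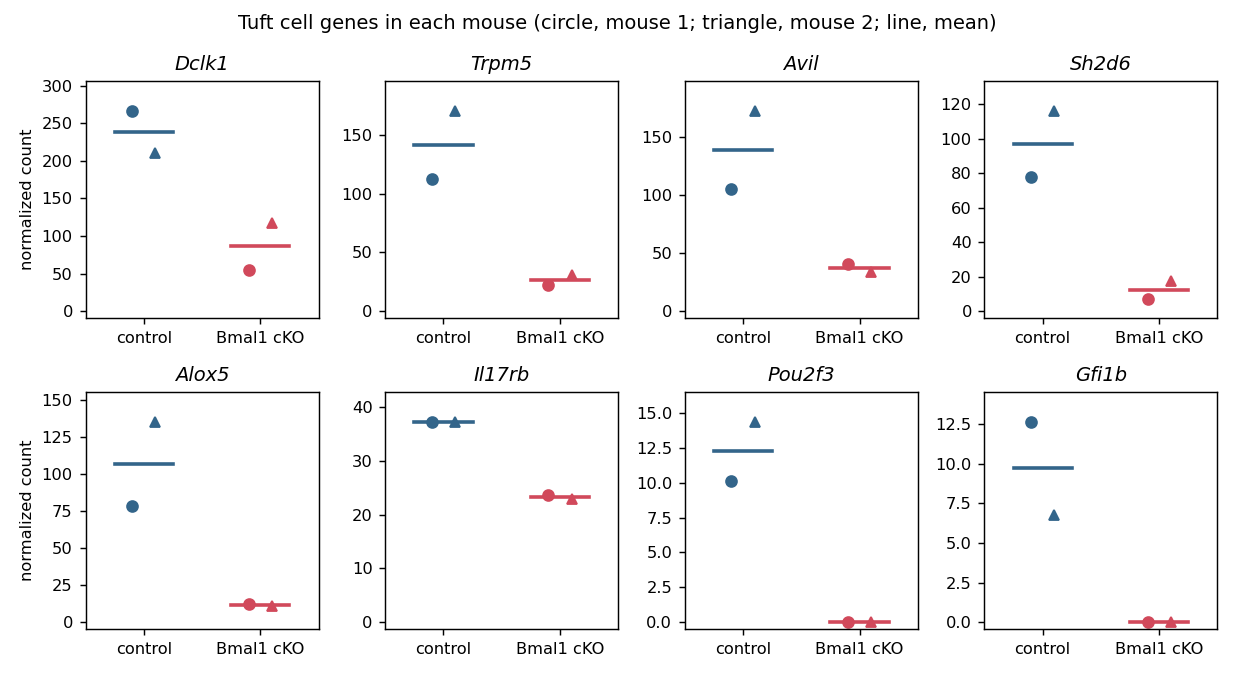
Normalized counts (linear vertical axes that include 0) of the 8 listed tuft cell genes in the control mice (blue) and the mice labelled *Bmal1* cKO (red). Circles are mouse 1, triangles mouse 2 and lines the group mean. In each panel both red points lie below both blue points, and *Pou2f3* and *Gfi1b* are at 0 in red.

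*Dclk1*, a microtubule-associated kinase that serves as the standard marker of tuft cells, had the highest normalized counts of the 8 listed genes (chromosome 3 of GRCm38, 55242364 to 55539068). Its normalized counts were 266 and 210 in control mice, and 55.5 and 118 in the cKO-labelled mice. The 2 groups did not overlap, and cKO-labelled mouse 2 lay between cKO-labelled mouse 1 and the controls. The log2 fold change was -1.54 ± 0.39 (SE, standard error, adjusted p = 0.0204, limma) and -2.0 after the correction (adjusted p = 0.0256). The call was lost without control mouse 1 (adjusted p = 0.143), without control mouse 2 (adjusted p = 0.0907) and without cKO-labelled mouse 1, where the log2 fold change was -1.0 (adjusted p = 0.0585).

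*Trpm5* encodes the calcium-activated cation channel that depolarizes the cell at the end of the taste relay (chromosome 7, 143069153 to 143094642). In control mice it had 112 and 170 normalized counts, against 22.6 and 31.1 in the cKO-labelled mice. Both cKO-labelled values lay well below both controls. The log2 fold change was -2.34 ± 0.35 (SE, adjusted p = 0.00369), or -1.68 after the correction (adjusted p = 0.0281). It passed the test in each of 15 alternative ways of processing, with log2 fold changes from -2.64 to -1.68. Its exons share 220 bases (3.44%) with *Tssc4* on the opposite strand, and the sources do not say whether strand was used in counting.

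Further upstream in the relay the values were less uniform. Of 10 relay genes written down with *Trpm5*, 7 were listed and 6 tested. Of the 6, 2 passed as lower and 0 as higher, beside 27.7% and 29.0% of all tested genes. Their median log2 fold change was -0.51. After the correction 1 was lower and 1 higher, with a median of -0.91, beside 16.6% and 17.2%. *Plcb2*, the phospholipase that *Trpm5* activity depends on in taste cells, had 139 and 43.2 normalized counts in the controls and 3.09 and 17.6 in the cKO-labelled mice. The controls differed widely from each other, and the log2 fold change of -3.17 (adjusted p = 0.0331) did not pass after the correction, at -2.69 (adjusted p = 0.0903). It also lost its call without control mouse 1 (-2.34), control mouse 2 (-4.00) or cKO-labelled mouse 1 (-2.08), with adjusted p up to 0.180. *Gnat3*, the G-protein subunit gustducin, had 22.0 and 40.7 against 7.20 and 16.2, which did not pass (adjusted p = 0.117) but did after the correction (adjusted p = 0.0348).

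The inositol trisphosphate receptors release calcium from internal stores. *Itpr3*, whose expression is broad in epithelium, had 2753 and 2794 normalized counts against 2267 and 1890, a log2 fold change of -0.42 (adjusted p = 0.0263) that turned to 0.65 after the correction (adjusted p = 0.0146). Its call was lost without either control mouse or cKO-labelled mouse 2 (adjusted p up to 0.112). *Itpr2* (log2 fold change -0.27), the taste receptor subunit *Tas1r3* (-0.61) and the G-protein regulator *Rgs13* (-0.18) did not pass, with adjusted p from limma of 0.376, 0.361 and 0.807. *Ffar3*, a receptor for short-chain fatty acids, had 8.45 and 7.62 normalized counts in the controls and 0 reads in both cKO-labelled mice, at least 2.25-fold lower. *Gng13*, *Tas1r1* and *Sucnr1* were not listed.

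*Avil* encodes advillin, an actin-bundling protein of the villin family found in the long microvilli of tuft cells (chromosome 10, 127000709 to 127020994). The control mice had 106 and 173 normalized counts, compared with 41.1 and 33.8 in the cKO-labelled mice. The cKO-labelled mice lay close together and well below the lower control. It had a log2 fold change of -1.83 ± 0.34 (SE, adjusted p = 0.00755), and -1.21 after the correction (adjusted p = 0.0448). Without control mouse 2 the adjusted p was 0.0540, and without cKO-labelled mouse 2 it was 0.0636. *Tsfm* on the opposite strand shares 165 bases (4.86%) of the *Avil* exons.

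*Sh2d6*, an adaptor with an SH2 domain that is enriched in tuft cells, had 77.7 and 116 normalized counts in controls, against 7.20 and 17.6 in the cKO-labelled mice (chromosome 6, 72513641 to 72521707). The groups stood far apart, although only 7 and 13 reads lay behind the cKO-labelled values. This was a log2 fold change of -2.96 ± 0.54 (SE, adjusted p = 0.00693), or -2.19 after the correction (adjusted p = 0.0279). Without control mouse 2 the adjusted p rose to 0.0569.

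Among the effectors, *Alox5* encodes 5-lipoxygenase, which starts leukotriene synthesis from arachidonic acid, and leukocytes also express it (chromosome 6, 116410077 to 116461178). Its normalized counts were 78.6 and 136 in controls, falling to 12.3 and 10.8 in the cKO-labelled mice. Both cKO-labelled values were low and near each other. The log2 fold change was -3.05 ± 0.43 (SE, adjusted p = 0.00292), and -2.60 after the correction (adjusted p = 0.0131). It passed the test in all 15 alternatives, between -3.44 and -2.60.

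Of 8 other genes of eicosanoid synthesis and sensing, 6 were listed and tested, of which 3 were lower and 2 higher, beside 27.7% and 29.0% of all tested genes. *Alox5ap*, which encodes the protein that presents arachidonic acid to 5-lipoxygenase, had 38.9 and 107 normalized counts in the controls, against 3 reads in one cKO-labelled mouse and 0 in the other (adjusted p = 0.00866, and 0.0508 without control mouse 2). It reached the mean of 10 needed for the test only through the controls. *Ptgs1*, the constitutive cyclooxygenase, had 271 and 98.3 against 14.4 and 20.3 (log2 fold change -3.18, adjusted p = 0.00567, and 0.0611 without cKO-labelled mouse 1). *Hpgds*, whose upstream window is printed with its octamer, had 198 and 176 against 56.6 and 51.4 (log2 fold change -1.77, adjusted p = 0.00206, and -2.72 after the correction). Each of these 3 was also lower after the correction.

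The 2 higher genes act on either side of these steps and are expressed by many epithelial cells. *Pla2g4a*, which frees arachidonic acid from membranes, had 807 and 706 normalized counts against 1228 and 1379 (log2 fold change 0.79, adjusted p = 0.00355). *Lta4h*, which makes leukotriene B4, had 1326 and 1448 against 1973 and 1971 (log2 fold change 0.51, adjusted p = 0.00675, and 0.0501 without cKO-labelled mouse 2). After the correction neither passed, at 0.06 and -0.14. The leukotriene receptor *Cysltr1* did not pass at -1.42 (adjusted p = 0.141) and did after the correction (adjusted p = 0.0429), and *Cysltr2* and *Ptgdr2* were not listed.

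*Il17rb*, which encodes the IL-25 receptor subunit that tuft cells and type 2 lymphoid cells carry, was the tested gene that did not pass (chromosome 14, 29996135 to 30008896). The controls had 37.2 and 37.3 normalized counts, against 23.7 and 23.0 in the cKO-labelled mice. Although the groups did not overlap and the mice within each were nearly equal, only 44 reads stood behind each control value and 23 and 17 behind the others. The log2 fold change was -0.65 ± 0.39 (SE, adjusted p = 0.198). Over 14 alternatives it lay between -0.87 and -0.58, with adjusted p from 0.108 to 0.420. *Actr8* on the opposite strand shares 141 bases (3.80%) of its exons.

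Other IL-17 receptor and ligand genes were read beside it, of which 4 of 6 tested passed as lower and 0 as higher (27.7% and 29.0% over all tested genes), and 3 and 1 after the correction (16.6% and 17.2%). Without control mouse 1 the lower calls fell to 2. *Il17ra*, the subunit that pairs with *Il17rb*, had 451 and 512 normalized counts in the controls and 219 and 223 in the cKO-labelled mice (log2 fold change -1.12, adjusted p = 0.00181). Its adaptor *Traf3ip2* fell by 1.02 on the log2 scale (adjusted p = 0.00528), and both passed after the correction, but *Traf3ip2* not without control mouse 1 (adjusted p = 0.0545). *Il17re* (-1.05), the epithelial receptor of IL-17C, was lost after the correction, at -0.25, and without control mouse 1 (adjusted p = 0.0637), whereas the ligand *Il17d* (-2.67) was called in both of these. *Il17rc* and *Il17rd* did not pass, at -0.52 and 0.44, and *Il17rc* was higher after the correction at 1.08 (adjusted p = 0.0171). *Il17a* and *Il17f* had too few reads for a test, with at most 9.29 and 18.6 normalized counts in any mouse, and *Il17b* and *Il17c* were not listed.

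The transcription factors of the lineage were the least abundant members. *Pou2f3* (chromosome 9, 43123939 to 43210369) had 12 and 17 reads in the control mice, or 10.1 and 14.4 normalized counts, and 0 reads in both cKO-labelled mice. *Gfi1b*, a zinc-finger repressor of tuft cells and of the erythroid and megakaryocyte lineages (chromosome 2, 28609450 to 28621982), had 15 and 8 reads, or 12.7 and 6.78 normalized counts, and again 0 reads in both. Of all listed genes, 1.59% had 0 reads in both cKO-labelled libraries. Against a floor of 3 reads in each library, *Pou2f3* was at least 3.44-fold and *Gfi1b* at least 2.72-fold lower.

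When every listed gene was tested, the adjusted p for *Pou2f3* was 0.0117 by limma, 0.0230 by edgeR and 0.0248 by DESeq2. For *Gfi1b* it was 0.0198, 0.0338 and 0.0540. By limma such a test called 25.5% of all listed genes lower and 25.2% higher. With 0 reads in both cKO-labelled mice, *Pou2f3* and *Gfi1b* were listed only through the controls, so these adjusted p are a description.

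Of 7 other regulators of tuft or secretory fate, 3 were tested and 1 passed, as lower, with and without the correction, beside 27.7% of all tested genes and 16.6% corrected. *Spib*, an ETS factor of tuft cells and also of B cells and plasmacytoid dendritic cells, had 324 and 168 normalized counts against 15.4 and 43.3 (log2 fold change -3.12, adjusted p = 0.00715, and -2.49 after the correction). Without control mouse 1 it was at -2.65 (adjusted p = 0.0726). *Atoh1*, which commits cells to secretory fates, had 467 and 875 against 456 and 552 and did not pass (log2 fold change -0.35, adjusted p = 0.359). Its log2 fold change ran from -0.80 to 0.10 over the fits that left out 1 mouse. *Sox4* did not pass either, at -0.04 (adjusted p = 0.851).

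The other regulators were counted too thinly for a test. *1810046K07Rik*, the gene of the POU2F3 coactivator OCA-T1, had 10.1 and 8.47 normalized counts in the controls and 1.03 and 5.41 in the cKO-labelled mice, which did not overlap. *Colca2*, the gene of the related OCA-T2, had 11.8 and 6.78 against 7.20 and 5.41, which did. The homeobox gene *Hmx2* overlapped as well (5.07 and 15.2 against 1.03 and 8.11), whereas *Hmx3* had 5.07 and 11.9 in the controls and 0 reads in both others, at least 2.37-fold lower.

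A list of 16 further genes reported to be enriched in tuft cells was all listed. Of the 15 tested, 8 passed as lower and 0 as higher, beside 27.7% and 29.0% of all tested genes. Their median log2 fold change was -1.86. After the correction 10 were lower and 0 higher, beside 16.6% and 17.2%. The called genes with the largest changes included *Cd300lf*, a myeloid and tuft cell receptor used by murine norovirus, at -2.85, the kinase *Matk* at -2.84 and the phosphoinositide phosphatase *Inpp5d* at -2.82, with adjusted p from limma of 0.00599, 0.00653 and 0.00368. *Inpp5d* and *Cd300lf* are also leukocyte genes. *Cd300lf* had 182 and 396 normalized counts in the controls and 51.4 and 25.7 in the cKO-labelled mice, and its call was lost without control mouse 2 (adjusted p = 0.0515) or cKO-labelled mouse 2 (adjusted p = 0.0561). *Chat*, the acetylcholine-synthesizing enzyme, had 6.76 and 12.7 in the controls and 0 reads in both others, at least 2.73-fold lower.

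Over the relay, regulator, eicosanoid and enriched lists together, 36 of 41 genes were listed and 30 tested. Of these, 14 passed as lower and 2 as higher, with a median log2 fold change of -1.40, beside 27.7% and 29.0% of all tested genes. After the correction 16 were lower and 1 was higher, with a median of -1.62, beside 16.6% and 17.2%. Of the 30, 4 had the mean of 10 only through the controls, namely *Alox5ap* and *Bmx*, which were called, and *Cysltr1* and *Hebp1*.

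**Figure D2:**
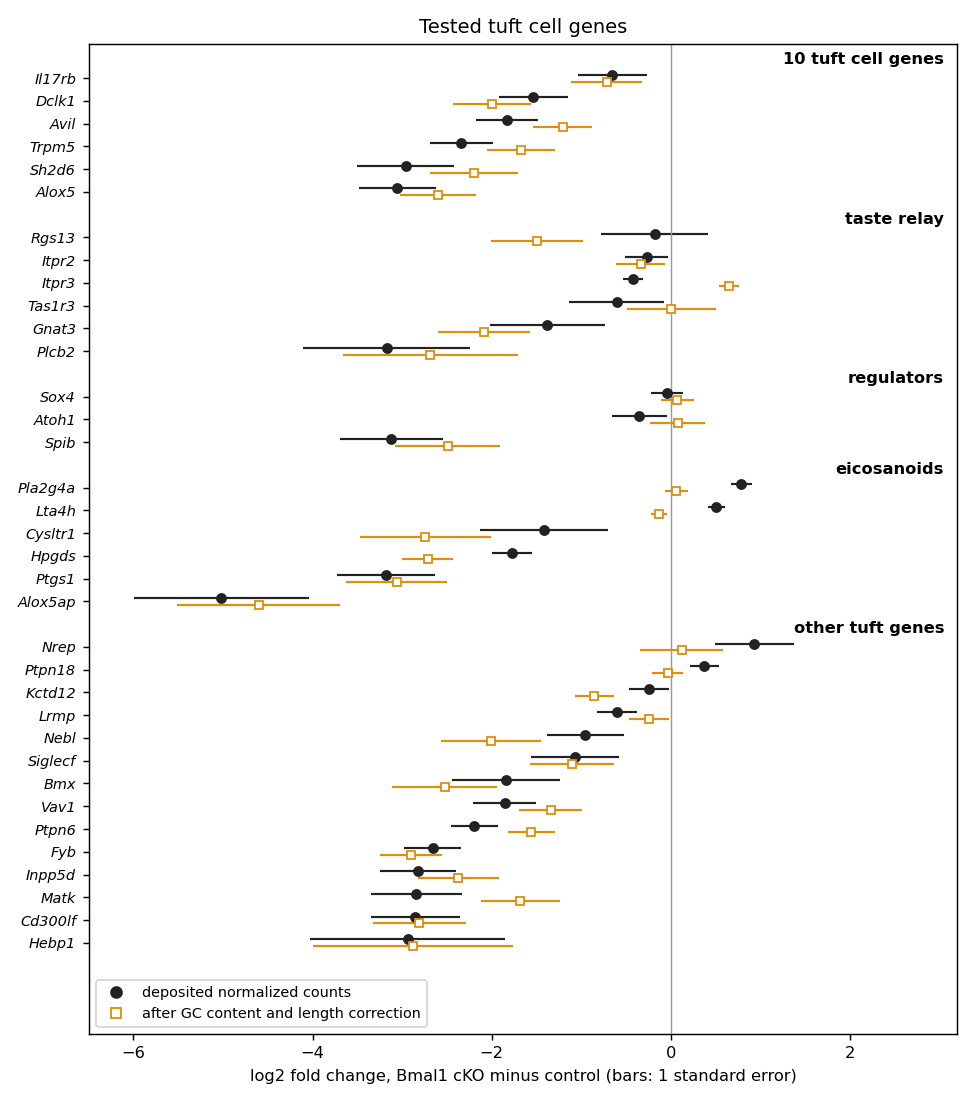
Log2 fold changes (horizontal axis, cKO-labelled minus control; bars, 1 standard error) of the 6 tested tuft cell genes and 29 of the 30 tested genes of the further lists (1 is not reported here). Filled circles use the deposited normalized counts and open squares the values corrected for GC content and exon length. The 6 tuft cell genes lie below 0 in both, and *Itpr3* moves from -0.42 to 0.65.

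Relatives of the 10 genes by sequence or pathway were read as well. Of 12 tested, 6 passed as lower and 2 as higher, beside 27.7% and 29.0% of all tested genes, and 3 and 1 after the correction, beside 16.6% and 17.2%. The lower calls numbered 2 without cKO-labelled mouse 1, 3 without cKO-labelled mouse 2 and 4 without either control. *Pou2f2*, the lymphoid POU factor, had 178 and 24.6 normalized counts in the controls against 7.20 and 1.35 (log2 fold change -3.95, adjusted p = 0.0311), a gene that reached the mean of 10 only through the controls, whereas the ubiquitous *Pou2f1* had 541 and 493 against 966 and 889 (log2 fold change 0.84, adjusted p = 0.00226). After the correction *Pou2f2* was at -3.55 (adjusted p = 0.0731) and *Pou2f1* at 0.11 (adjusted p = 0.571). *Pou2f2* passed in the fit without control mouse 2 and in none of the others that left out 1 mouse (adjusted p up to 0.179). *Gfi1*, the paralog of *Gfi1b* that acts in goblet and myeloid cells, was at -1.15 (adjusted p = 0.0225) and was called neither after the correction, at -0.21, nor without any 1 of the 4 mice (adjusted p up to 0.108). The adaptor *Lcp2* was lower in both, at -2.73 and -3.13. Of the relatives of *Ltc4s*, *Mgst3* was lower at -0.72 (adjusted p = 0.00708, and 0.0613 without cKO-labelled mouse 1) and *Mgst2* higher at 0.93 (adjusted p = 0.00113), and both passed after the correction.

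In the type 2 circuit that tuft cells feed, IL-25 is joined by IL-33 and TSLP, and IL-4 and IL-13 act back on the epithelium. Of 16 genes, 12 were listed and 10 tested, of which 5 were lower and 1 higher (27.7% and 29.0% over all tested genes), and 4 and 0 after the correction (16.6% and 17.2%). The lower calls fell to 3 without control mouse 1 and without either cKO-labelled mouse, where *Il1rl1* and *Stat6* were lost, and the higher calls rose to 2 without control mouse 1. *Crlf2*, the TSLP receptor, had 287 and 219 normalized counts against 23.7 and 9.46 (log2 fold change -3.97, adjusted p = 0.00177, and -1.80 after the correction, adjusted p = 0.0277). *Il4ra*, the receptor subunit shared by IL-4 and IL-13, had 1560 and 1533 against 719 and 553 (log2 fold change -1.29, adjusted p = 0.00145, and -0.54 after the correction, adjusted p = 0.0289).

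*Il1rl1*, the IL-33 receptor, was at -1.44 (adjusted p = 0.0282) and at -2.24 after the correction, and lost its call without control mouse 1 (-0.85), cKO-labelled mouse 1 or cKO-labelled mouse 2 (adjusted p up to 0.154). *Areg*, an EGF receptor ligand, was at -0.81 with and without the correction (adjusted p = 0.00136 and 0.00676). In the other direction, *Il13ra1* had 1804 and 2438 against 4919 and 5293 (log2 fold change 1.28, adjusted p = 0.00196), a call that was not kept after the correction, at 0.34 (adjusted p = 0.167). Of the ligands, *Tslp* had 1 and 0 reads in the controls and 6 and 8 in the cKO-labelled mice, too few for the main test. Without the filter its adjusted p was 0.0394 by limma, 0.0483 by edgeR and 0.111 by DESeq2. *Tslp* was listed through the cKO-labelled mice, so these values are a description. *Il4* had 10.98 and 1.69 normalized counts against 13.4 and 14.9 (adjusted p = 0.249), and *Il33* had 294 and 129 against 463 and 258 (adjusted p = 0.176). Neither passed in the main fit. With a block for the mouse number *Il33* passed as higher (adjusted p = 0.0127, limma). The log2 fold change of *Il4* ran from 0.33 to 2.49 over the fits that left out 1 mouse. *Il5*, *Il9*, *Il13* and *Retnla* were not listed.

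Per length, the controls expressed *Sh2d6* most, at 12.5 and 18.5 TPM, a level scaled to summed exon length and library total and computed from the recovered reads. *Avil* followed at 8.42 and 13.7 TPM, *Alox5* at 5.18 and 8.89, *Trpm5* at 4.76 and 7.16 and *Dclk1* at 4.71 and 3.70. *Il17rb* stood at 2.72 and 2.71 TPM, *Gfi1b* at 1.88 and 0.997 and *Pou2f3* at 0.889 and 1.26. Both controls gave the same order, except that *Gfi1b* and *Pou2f3* changed places. Between mice, however, the ranges of *Sh2d6* and *Avil*, of *Avil* and *Alox5* and of *Alox5* and *Trpm5* overlapped. In the cKO-labelled mice *Avil* had 3.39 and 2.70 TPM and *Sh2d6* 1.19 and 2.83, so that a different gene of the pair was higher in each mouse.

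Summed over the 8 listed genes, the normalized counts were 700 and 863 for the controls, against 163 and 234 in the cKO-labelled mice. Per 1000 normalized counts of *Epcam*, a surface protein of all epithelial cells, the sum was 40.1 and 39.6 in the controls and 8.74 and 11.5 in the cKO-labelled mice. *Epcam* itself had a log2 fold change of 0.00 (adjusted p = 0.984), and 0.38 after the correction (adjusted p = 0.225). The 8 pan-epithelial genes had 1 lower and 1 higher call with a median of -0.24, which turned to 0.48 after the correction, with 0 lower and 2 higher calls. Without control mouse 1 there were 3 lower and 0 higher calls, and the higher call was also lost without either cKO-labelled mouse. The shares over all tested genes were 27.7% and 29.0%, and 16.6% and 17.2% corrected.

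Genes of other epithelial cells were counted beside them. Of 8 goblet cell genes, 6 passed as lower with a median log2 fold change of -2.17, but 3 after the correction, with a median of -1.20. Of 8 enteroendocrine genes 6 passed as lower with a median of -1.10, and 7 after the correction, with a median of -1.67. The shares over all tested genes were 27.7% lower and 29.0% higher, and corrected 16.6% and 17.2%. Without cKO-labelled mouse 1 or mouse 2 the goblet calls fell to 2 and 4, and the enteroendocrine calls to 3 in either case. Absorptive cell genes gave 2 lower and 1 higher call (2 and 2 after the correction), and crypt stem cell genes 2 lower and 4 higher calls (1 and 4), of 8 tested each. The lower stem cell calls went to 0 without either cKO-labelled mouse, 3 without control mouse 1 and 1 without control mouse 2, and the absorptive calls to 1 lower without cKO-labelled mouse 1 and 0 higher without cKO-labelled mouse 2. Whether the tuft cell genes differed from these lists was not tested.

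Genes of leukocytes and stroma were counted as well. Of 39 tested myeloid, neutrophil, T and NK, and B and plasma cell genes, 26 passed as lower and 0 as higher, with a median log2 fold change of -3.0, and of 14 fibroblast and endothelial genes 12 passed as lower, with a median of -3.78. The shares over all tested genes were 27.7% lower and 29.0% higher. After the correction 22 and 11 were lower, beside 16.6%. Of the 26 calls 13, and of the 12 calls 5, were of genes that reached the mean of 10 only through the controls, so these counts are a description. The leukocyte, fibroblast and endothelial calls were fewer without either cKO-labelled mouse or without control mouse 1, and more without control mouse 2. Lower calls over all tested genes were fewer in each of these fits. Calls were uneven, with 9 of 12 myeloid, 9 of 9 neutrophil, 7 of 10 T and NK and 1 of 8 B and plasma cell genes lower, the last 0 after the correction. All 8 B and plasma cell genes had negative log2 fold changes, with a median of -2.86, and the controls differed widely in them. More of them were called without control mouse 2, and fewer without either cKO-labelled mouse. The difference between these lists was not tested. The summed myeloid genes ranged from 8525 to 9643 normalized counts in the controls and from 1986 to 2075 in the cKO-labelled mice. Neutrophil genes summed to between 9311 and 27903 against 2853 to 3516, T and NK genes to between 191 and 611 against 47.3 to 82.5, and B and plasma cell genes to between 778 and 26931 against 359 to 673. Fibroblast genes summed to between 2524 and 14879 against 465 to 489, and endothelial genes to between 369 and 1546 against 63.8 to 90.6.

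In both cKO-labelled mice 0 of the 12 myeloid, 2 of the 10 neutrophil and 1 of the 12 T and NK genes were at 0 reads. Several tuft cell genes are shared with such cells, among them *Alox5*, *Alox5ap*, *Spib*, *Inpp5d* and *Cd300lf* with leukocytes, a list that is not complete. *Gfi1b* is shared with the erythroid and megakaryocyte lineages. Genes of the latter lineages gave 4 lower calls (3 after the correction) and 0 higher of 5 tested, the lower being *Hba-a1*, *Hbb-bs*, *Alas2* and *Itga2b*, but these 4 reached the mean of 10 only through the controls, and 2 were lower without either cKO-labelled mouse. The hemoglobin gene *Hbb-bs* had 757 and 1150 normalized counts in the controls and 8.23 and 8.11 in the cKO-labelled mice. *Gata1*, *Klf1* and *Gp9* were not listed. Of the mast cell genes 2 of 4 tested were lower and 1 was higher, and *Fcer1a* and *Ms4a2* were not listed. Without cKO-labelled mouse 1 these mast cell calls went to 0 and 0, and without any other mouse to 1 and 0. Of 6 eosinophil and basophil genes *Il5ra* alone was listed, and it was lower in the fit with all mice and without cKO-labelled mouse 1, but not without any of the other 3. Of 8 neuronal and glial genes 5 were listed, and 1 of 3 tested was lower, or 2 without cKO-labelled mouse 1. The counts with all mice are to be read against 27.7% lower and 29.0% higher over all tested genes. The corrected count is to be read against 16.6% and 17.2%. Calls over all tested genes were also fewer in each fit that left out 1 mouse. The part of these cells in the fall of the tuft cell genes was not tested.

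From control mouse 1 to control mouse 2 the tuft cell genes stood at ratios between 0.535 for *Gfi1b* and 1.72 for *Alox5*, and their sum at 1.23. The corresponding ratio was 0.0289 for the B and plasma cell sum, 0.170 for fibroblasts, 0.239 for endothelial cells, 0.312 for T and NK cells, 0.884 for myeloid cells and 3.0 for neutrophils. Single myeloid genes ranged from 0.111 for *C1qc* to 3.2 for *Cd14*. It was 0.895 for the mast cell sum, 1.13 for *Il5ra*, 0.930 for neuronal and glial genes and 1.32 for the erythroid and megakaryocyte genes. Goblet and enteroendocrine sums stood at 2.03 and 1.38. *Trpm5*, *Avil*, *Alox5*, *Sh2d6* and *Pou2f3* were higher in control mouse 2, *Dclk1* and *Gfi1b* were higher in control mouse 1, and *Il17rb* was equal at a ratio of 1.0.

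**Figure D3:**
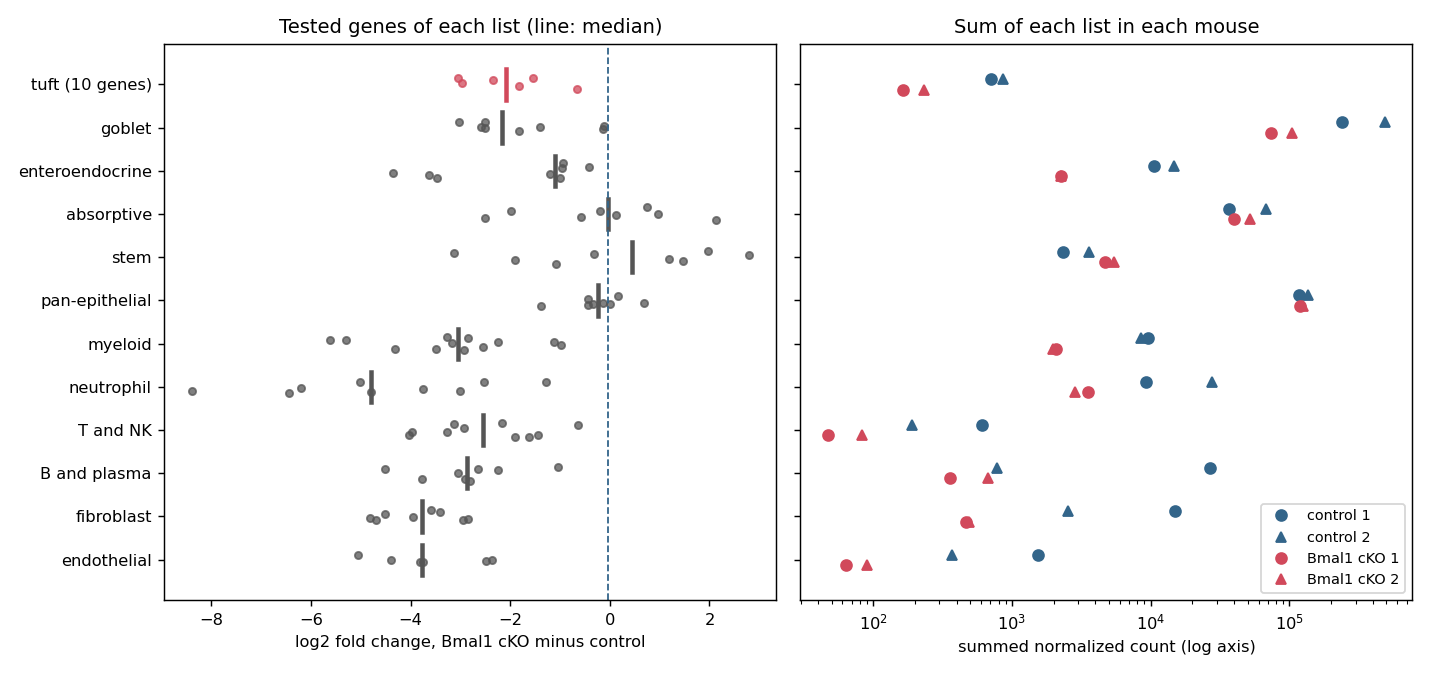
Left, log2 fold changes (cKO-labelled minus control) of the tested genes of each list, with a bar at the list median and a dashed line at the median of all tested genes, -0.04. Right, summed normalized counts of each list in each mouse (log axis), controls in blue and cKO-labelled mice in red, with circles for mouse 1 and triangles for mouse 2. The tuft cell sums are 700 and 863 in blue and 163 and 234 in red, whereas the B and plasma cell sums of the controls are 26931 and 778.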

How the data were processed

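Bulk RNA sequencing libraries of 2 controls and 2 mice labelled *Bmal1* cKO were compared. Per the methods, reads were aligned to GRCm38 with STAR 2.2.1 and analyzed with DESeq2 1.40.1. The counter and the annotation release are not given in the sources used here. The authors deposited a signal for each mouse, that is, gene counts over a size factor, with a lowest mean of 3.39 over 16015 genes. They also deposited a mean, log2 fold changes with standard errors, a Wald statistic and p-values (6 columns), which were not used. Whole reads were recovered for 100% of the values in each library (tolerance 0.01).

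Genes with a mean of at least 10 were tested on log2(normalized count + 1) by limma 3.58.1 (trend on the mean) (R 4.3.3, two-sided, Benjamini-Hochberg, threshold 0.05). That scale shrinks the change of low genes. Positions, exon lengths and GC content came from GENCODE M21, which matched 16003 genes. The correction was a loess fit (span 0.3). Lower bounds divide the control mean by a floor of 3 reads per library, averaged over the cKO-labelled libraries. They allow for counting error in the cKO-labelled libraries only, and not for error in the controls or differences between mice. Replicates are numbered mice, so p-values measure the spread between these mice, and their counts differed by more than sampling noise (chi-square per gene 42.1 for the control and 11.08 for the cKO-labelled pair). With 2 mice per group no exact test or outlier test was made.

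Alternatives were pseudocounts of 0.5 and 5, no filter or a mean of at least 50, scaling by library totals or TMM, edgeR 4.0.16 and DESeq2 1.42.0 on recovered reads, the correction, a block for the mouse number and leaving out each mouse. Tests without a filter by edgeR and DESeq2 were added after seeing the data. The scripts were tested on simulated data. The genes and lists were chosen with earlier results of these data known. Named were the 10 genes, *Arntl* and, from the lists on tuft cells, the type 2 circuit, the IL-17 family and relatives, all listed genes of lists with at most 10 and otherwise the 4 called genes of largest change in each direction, of which 1 is not reported here. Marker lists of other cell types gave counts and sums. *Chat*, *Tslp*, *Il4*, *Il33* and the erythroid genes were named outside this rule, after their values were seen.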

Additional observations from a re-analysis of the deposited data

How the results depend on the processing

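*Trpm5* and *Alox5* passed as lower in each of 15 alternatives, *Il17rb* passed in 0 of 14, and all 6 tested genes kept a negative log2 fold change in each alternative run. Over the fits that left out 1 mouse, in which a lone mouse is assumed to vary like the other group, the genes called lower among the 6 numbered 2 to 4, with 2 (*Trpm5* and *Alox5*) without control mouse 2 and 4 without any other mouse. The log2 fold changes then ranged from -2.07 to -1.0 for *Dclk1*, from -2.18 to -1.48 for *Avil* and from -3.55 to -2.37 for *Sh2d6*. Over all tested genes the calls ranged from 2205 to 2852 lower and from 2654 to 3154 higher when 1 mouse was left out, and the higher calls of the further tuft lists from 1 to 2. With GC content and length corrected there were 2313 lower and 2408 higher calls over all genes, and 1 higher call in the further lists. Scaling by library totals moved the median log2 fold change of all genes by -0.22, to -0.26.

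No pairing by mouse number was seen, as the correlation of the deviations of same-numbered mice was -0.09. With 2 mice per group this value cannot exclude a pairing. With the replicate block 3789 genes were lower and 3899 higher, and the same 5 tuft cell genes were lower. With the block and the correction together there were 1883 lower and 1935 higher calls, 1 higher call in the further lists, and *Avil* at -1.21 was no longer called (adjusted p = 0.0693). The cause of these differences was not tested. Between 7 and 40 reads lay behind the cKO-labelled values of *Alox5*, *Sh2d6*, *Avil* and *Trpm5*, and 0 behind those of *Pou2f3* and *Gfi1b*, whose falls are given as bounds.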
